A study of Mus musculus with 3 samples.

Results

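The cells compared here were migratory dendritic cells that carried the OX40L reporter, split by whether a reporter of past Siglech expression was on. They were 3025 of the 5019 cells kept from 6079 barcodes, 841 in the population sorted as BFP+RFP+ and 2184 in the population sorted as BFP+RFP-. A cell was kept when 1 hashtag held 80% or more of its hashtag UMIs (unique molecular identifiers). It also needed 500 genes, 1000 mRNA UMIs and a mitochondrial share no higher than 10%. Both populations came from the ear-draining lymph nodes of mice of genotype SiglechiCreTg/0 ROSA26LoxP-STOP-LoxP-RFP Tnfsf4KI/+. In these mice a Cre transgene under Siglech control switches on RFP from the ROSA26 locus for good, and 1 copy of Tnfsf4, the OX40L gene, carries a knocked-in BFP. RFP therefore records Cre activity at any time in a cell's past, not present Siglech expression, and the labels state neither how many animals were pooled nor their age. All mice received MC903 on days 0, 2 and 4, no untreated mice were analysed here, and cells were sorted on day 5 by a gate that was MHC class II high, CD11c low to intermediate, and negative for B220, XCR1 and CD326. The sorter delivered 5200 BFP+RFP+ and 10400 BFP+RFP- cells into 1 pool, with the BFP- populations, and 1 capture. Each population is therefore 1 sample, no test between them was possible, and all 95% intervals cover counting error only.

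OX40L is a ligand of the TNF superfamily that dendritic cells show to T cells, where it supports type 2 responses. It is induced on skin dendritic cells by TSLP, a cytokine that keratinocytes release after treatment with MC903, an analogue of vitamin D. Siglech is a surface lectin of plasmacytoid dendritic cells and of some of their precursors. A Siglech history in a migratory dendritic cell records past activity of the Siglech-driven Cre, and whether it marks a past shared with that lineage was not tested. Migratory conventional dendritic cells bring skin antigen to the node, and type 2 cells among them are usually recognised by CD11b, CD172a (SIRPA) and, in skin, CD301b (MGL2).

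The comparison rests on 6 designed oligonucleotides, 2 hashtags that separate the populations and 4 antibody tags that read surface proteins on the same cells. They are printed 5′ to 3′ in the base order of the deposited feature list, all in capitals. Each is the 15-base barcode that names the antibody.
Hashtag 1, BFP+RFP+ cells: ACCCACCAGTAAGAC
Hashtag 3, BFP+RFP- cells: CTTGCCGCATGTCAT
CD8a tag: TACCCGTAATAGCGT
CD11b tag: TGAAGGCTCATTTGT
CD172a tag: GATTCCCTTGTAGCA
CD301b tag: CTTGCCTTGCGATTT

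Depth was close between the populations. BFP+RFP+ cells had 14133804 mRNA UMIs in all and a median of 15183 UMIs and 3269 genes per cell, and BFP+RFP- cells had 35589710 UMIs, 14854.5 UMIs and 3206 genes. The median cell had 97.0% of its hashtag UMIs from its own hashtag in each population (96.95% and 97.03%), and 1.94% and 1.98% mitochondrial UMIs. From the 699 barcodes with mixed hashtags, 2.99% of BFP+RFP+ and 7.69% of BFP+RFP- barcodes are expected to be doublets of 2 cells of the same population, which hashtags cannot show and which were not removed. Barcodes with T or NK cell markers (7.49% and 7.10%), B cell markers (3.45% and 2.88%) and macrophage markers (0.476% and 0.458%) took similar shares of both. The label of migratory dendritic cells held for the sums of both populations: Fscn1, an actin bundler of migratory cells, stood at 2162 and 2144 CPM (UMIs per 1000000 mRNA UMIs of the population) and Ccr7, the receptor that guides them to the node, at 1409 and 1441 CPM. In the order BFP+RFP+ then BFP+RFP-, used for every pair of values here, Xcr1 of type 1 dendritic cells had 1 and 5 UMIs, and Cd207 of Langerhans cells had 1 and 3.

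The antibody tags separated the populations. The CD8a tag averaged 199 UMIs per BFP+RFP+ cell against 106 per BFP+RFP- cell, with medians of 121 and 42, a log2 ratio of the means of 0.91 (0.90 to 0.92). Of BFP+RFP+ cells, 74.1% (71.0% to 77.0%, Clopper-Pearson) lay at or above the pooled median of 55 CD8a UMIs, against 40.9% (38.9% to 43.0%) of BFP+RFP- cells. The myeloid tags went the other way. CD11b, an integrin chain, averaged 90.4 and 130.4 UMIs with medians of 25 and 46, and its log2 ratio was -0.53 (-0.54 to -0.52). CD172a averaged 96.1 and 127.1 UMIs with medians of 64 and 92, a log2 ratio of -0.40 (-0.41 to -0.39). CD301b averaged 50.6 and 74.3 UMIs, a log2 ratio of -0.56, but its medians of 27 and 31 were close and the difference was wider in the upper tail, where the 90th percentiles were 57 and 123. The ranges of single cells overlapped for each tag, and the summed tags were similar, with medians of 301 and 315 UMIs per cell.

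**Figure D1:**
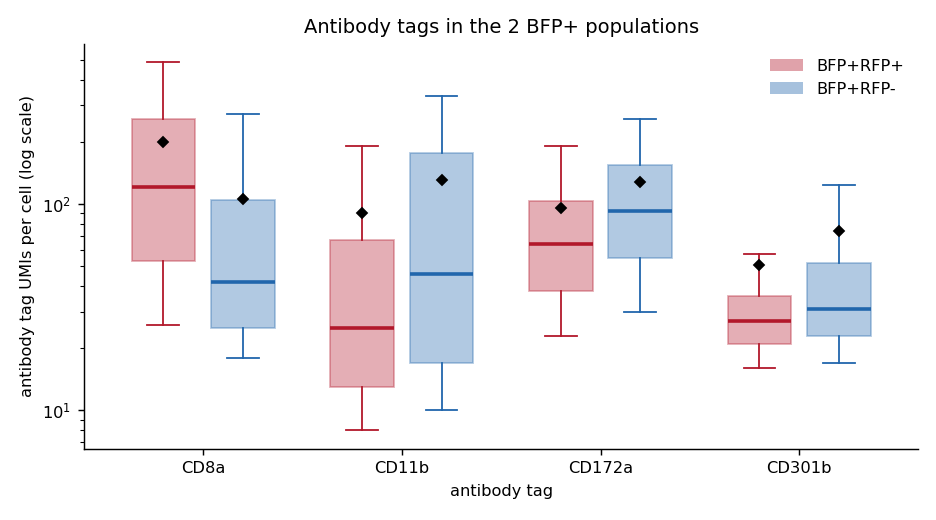
Antibody tag UMIs per cell (log scale) for the 4 tags in BFP+RFP+ (red) and BFP+RFP- cells (blue). Boxes span the quartiles with the median as a line, whiskers reach the 10th and 90th percentiles of cells and diamonds are means. The CD8a box is higher in BFP+RFP+ cells (medians 121 and 42), and the other 3 are lower.

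The CD8a and CD11b tags jointly divided the cells further, with high meaning at or above the pooled median of 55 UMIs for CD8a and 37 for CD11b. Cells high for CD8a and low for CD11b were 42.2% (38.8% to 45.6%) of BFP+RFP+ and 17.7% (16.1% to 19.3%) of BFP+RFP- cells. Cells low for CD8a and high for CD11b were 7.49% (5.80% to 9.48%) and 31.4% (29.5% to 33.4%). Cells high for both were 31.9% and 23.3%, and cells low for both 18.4% and 27.7%. Thus the quadrant that held most BFP+RFP+ cells held the fewest BFP+RFP- cells, and the reverse. These quadrants were chosen after the tags had been seen.

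The mRNA of the tagged proteins followed the tags in part. Cd8a, which encodes CD8a, stood at 32.4 and 19.9 CPM, a log2 ratio of 0.70 (0.53 to 0.87), and was low in cells below the tag's median, at 39.2 CPM in CD8a-high against 2.30 CPM in CD8a-low BFP+RFP+ cells and at 37.2 against 3.20 CPM in BFP+RFP- cells. Within CD8a-high cells the log2 ratio of its level was 0.08 (-0.10 to 0.25). That value joined opposite directions, -0.29 (-0.54 to -0.04) where CD11b was low and 0.32 (0.07 to 0.57) where CD11b was high. Cd8b1, the partner chain on T cells, was lower in BFP+RFP+ cells at 6.44 and 8.54 CPM (-0.40, -0.76 to -0.07). Sirpa, which encodes CD172a, stood at 49.7 and 79.7 CPM, a log2 ratio of -0.68 (-0.80 to -0.56). Itgam, which encodes CD11b, had only 15 and 60 UMIs, so that its mRNA could not be compared at this depth. Mgl2, which encodes CD301b, went against its tag, at 12.8 and 9.44 CPM (0.44, 0.17 to 0.70), but 5 cells held 27.7% of its UMIs.

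The gate on BFP did not equalise Tnfsf4. Tnfsf4 stood at 306 and 102 CPM, a log2 ratio of 1.58 (1.52 to 1.65), and BFP mRNA at 41.5 and 16.8 CPM (1.30, 1.14 to 1.47). Tnfsf4 mRNA was concentrated in a minority of cells of each population: 168 of 841 BFP+RFP+ and 146 of 2184 BFP+RFP- cells had 6 or more Tnfsf4 UMIs, 19.98% and 6.69% of cells, and these held 88.4% and 75.01% of all its UMIs. Most cells sorted as BFP+ gave no Tnfsf4 UMI at this depth, 53.7% (50.3% to 57.2%) of BFP+RFP+ and 72.8% (70.9% to 74.7%) of BFP+RFP- cells. The mRNA of the red reporter, which the sort itself selects, had 332 UMIs with the RFP+ hashtag and 6 with the other, and Siglech itself had 1 in each. By tags, Tnfsf4 was high where CD8a was high: in BFP+RFP+ cells it stood at 391 CPM in CD8a-high CD11b-low, 316 in CD8a-high CD11b-high, 116 in CD8a-low CD11b-low and 62.0 in CD8a-low CD11b-high cells. BFP+RFP- cells had 157, 155, 59.5 and 43.9 CPM in the same quadrants. Tnfsf4 was thus higher with a Siglech history in each quadrant, by log2 1.32, 1.03, 0.96 and 0.51, and with the quadrants weighted to the same mix the ratio over all cells was 1.13.

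Across all genes the populations were close, with a tail on each side. Of 10139 genes with at least 100 UMIs in both populations together, 110 (1.08%) were higher in BFP+RFP+ cells by a log2 ratio of at least 1, the 3 reporter features and Tnfsf4 among them, and 159 (1.57%) were lower by as much. The median log2 ratio was -0.03, 90% of genes lay between -0.60 and 0.46, and 70.1% within 0.25 of 0. Few cells carried many of the large ratios: the 5 cells with the most UMIs of a gene held over 25% of them in 12 of the 110 higher and 45 of the 159 lower genes. Among the lower ones, Retnla, a gene of alternatively activated macrophages, had a log2 ratio of -7.49 with all of its UMIs in 5 cells. The genes named next had at least 500 UMIs, at most 10% of them in 5 cells, and the 15 highest and 15 lowest ratios.

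**Figure D2:**
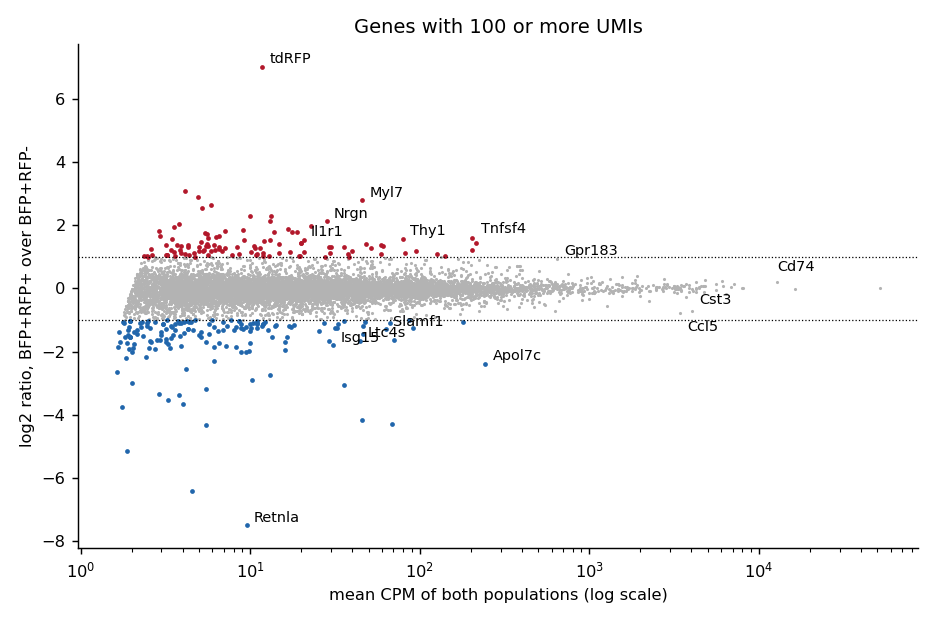
Log2 ratio of BFP+RFP+ over BFP+RFP- cells against the mean CPM of both (log scale) for the 10139 genes with at least 100 UMIs. Each point is a gene, dotted lines mark ratios of 1 and -1, and 110 genes above (red) and 159 below (blue) are past them.

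The highest of the 15 ratios was that of Nrgn. Nrgn, a calmodulin-binding protein best known from neurons, stood at 46.0 and 10.6 CPM, a log2 ratio of 2.12 (1.94 to 2.31), and was seen in 25.6% and 7.92% of cells. Thy1, a small surface glycoprotein that T cells also carry, was at 119 and 39.8 CPM (1.58, 1.48 to 1.68) and in 36.6% and 13.2% of cells. Both the level and the share of cells were higher in BFP+RFP+ cells for each of the 15. Mdk, a heparin-binding growth factor, had a ratio of 1.79 (1.57 to 2.01), and Btla, an inhibitory receptor of the immunoglobulin family, 1.19 (1.10 to 1.29). Cd24a, a surface glycoprotein, had 1.19, and Atp1b1, a subunit of the sodium pump, 1.39. Il1r1, the signalling receptor of interleukin-1, stood at 30.8 and 10.6 CPM (1.54, 1.34 to 1.75), Il6, an inflammatory cytokine, at 29.2 and 10.8 CPM (1.44, 1.23 to 1.64), and Dll4, a ligand of Notch receptors, at 42.9 and 17.3 CPM (1.31, 1.15 to 1.48). Also among them were Tubb2b, a beta tubulin, at 284 and 123 CPM (1.21), Scin, an actin-severing protein, at 1.29, the phosphatase gene Ppm1l at 1.30, Tagap at 1.40, and Nol4l at 1.43.

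The lowest of the 15 lower ratios was that of Apol7c. Apol7c, an apolipoprotein L gene, stood at 78.3 and 409 CPM, a log2 ratio of -2.39 (-2.48 to -2.30), and was seen in 15.9% and 35.3% of cells. Its paralogue Apol10b, below the limit of 500 UMIs, stood at 2.05 and 10.1 CPM (-2.28, -2.90 to -1.76), and reads shared between such similar genes could be split by the counting. Ltc4s, which makes leukotriene C4, stood at 21.6 and 67.9 CPM (-1.65, -1.83 to -1.48). Zmynd15 was at 34.2 and 107 CPM (-1.64), Slamf1, a receptor that binds itself on neighbouring cells, at 36.6 and 89.3 CPM (-1.29), and the tetraspanin gene Cd9 at 53.8 and 128 CPM (-1.25). The junction protein gene F11r had a ratio of -1.54, Mmp14, a membrane-bound matrix protease, -1.24, and Mtss1, which shapes membranes, -1.19. Ttc39b stood at -1.70, Slc44a5 at -1.44, the stress-induced gene Nupr1 at -1.34, Trf, which encodes transferrin, at -1.25, Fgl2, a fibrinogen-like protein, at -1.17, and Sgms1, a sphingomyelin synthase, at -1.17. The intervals of all 30 ratios excluded 0, for counting error only; the genes were chosen by this ratio.

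**Figure D3:**
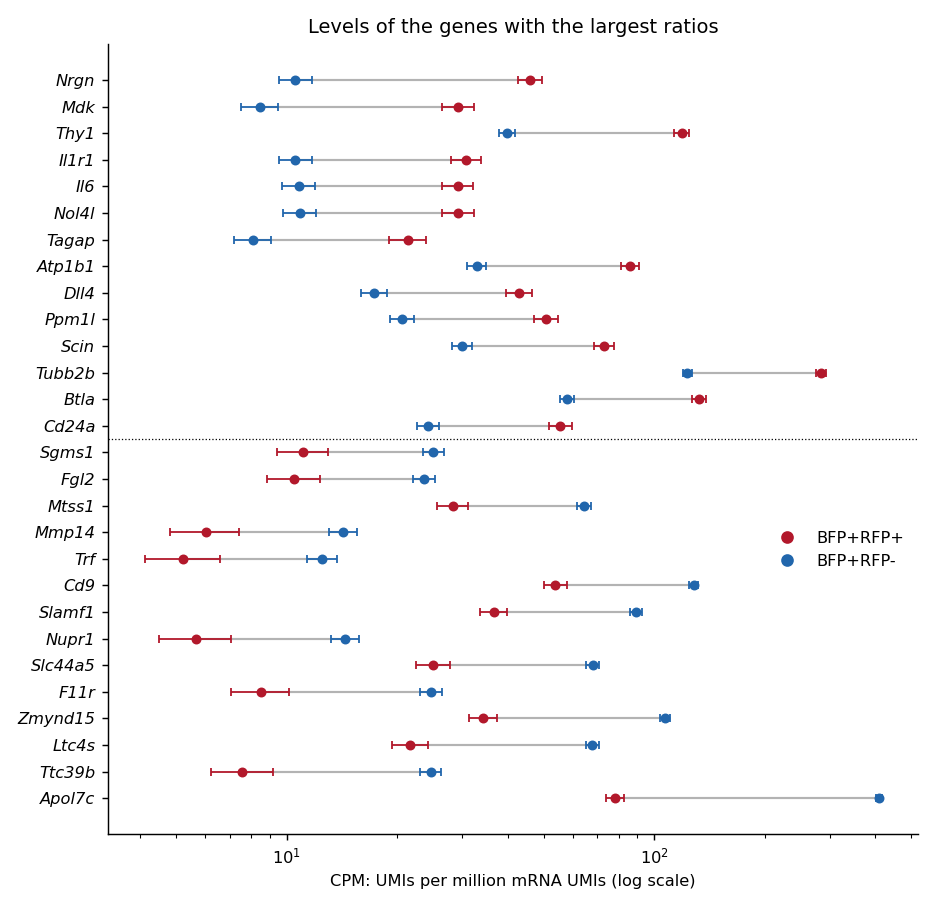
CPM (log scale) of genes with the highest and the lowest ratios, all but 1 of the 15 in each direction, in BFP+RFP+ (red) and BFP+RFP- (blue) cells, with exact 95% Poisson intervals as bars. Intervals of the 2 populations do not overlap for any gene shown; the genes were chosen by this ratio, and Apol7c (78.3 and 409 CPM) has the widest gap.

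Abundant genes differed less on the log scale but by more molecules. The 10 genes higher by the most CPM were led by class II presentation: Cd74, the invariant chain, stood at 13770.0 and 11918 CPM (0.21), H2-Aa at 6567 and 5589 CPM (0.23) and H2-Eb1 at 5257 and 4373 CPM (0.27). Fabp5, a fatty acid binding protein, Vim, an intermediate filament protein, and S100a6, a calcium-binding protein, followed with ratios of 0.13, 0.16 and 0.41. Weighted to the same mix of the CD8a and CD11b quadrants, Cd74 and H2-Aa were each at 0.10 and H2-Eb1 at 0.14. Fabp5 was then at 0.08, Vim at -0.03 and S100a6 at 0.29. Gpr183, a receptor for oxysterols that positions cells in lymphoid tissue, stood at 844 and 440.3 CPM (0.94, 0.90 to 0.97), the largest ratio of the 10. Of the 10 genes lower by the most CPM, Cst3, which encodes the protease inhibitor cystatin C, stood at 3056 and 5021 CPM (-0.72), and Ccl5, a chemokine for T cells, at 2513 and 4333 CPM (-0.79, -0.80 to -0.77). Crip1 (-0.27), Epsti1 (-0.40) and H2az1, a histone variant (-0.57), were also among them, while Tpt1, B2m and Eef1a1 were lower by no more than 0.19. Gpr183 was seen in 79.1% and 61.4% of cells.

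Ligands for T cells did not go one way. A member of a gene list is described as higher or lower here past a log2 ratio of 0.25 in size, which 11.9% of all measured genes passed upward and 18% downward. Of 10 measured ligands of the TNF superfamily, 6 were higher, Tnfsf4 among them, and 1 lower, with a median of 0.39. Tnfsf9, which encodes the ligand of 4-1BB, stood at 113 and 51.7 CPM (1.13, 1.03 to 1.23), Cd70, the ligand of CD27, at 37.1 and 19.5 CPM (0.93, 0.76 to 1.09) and Ltb, a lymphotoxin chain, at 39.3 and 29.5 CPM (0.42, 0.27 to 0.57). Barcodes that carried markers of other cell types held 50.4% of Ltb UMIs, and the ratio of Ltb without them was 0.61. Tnfsf11, which encodes RANKL, had the highest ratio, 2.54 (2.07 to 3.03), at 8.84 and 1.52 CPM, with 46.9% of its UMIs in 5 cells. Tnfsf8, the ligand of CD30, was lower at 3.82 and 5.79 CPM (-0.59), likewise with 47.3% in 5 cells, and only 18 of its UMIs lay outside the barcodes that carried markers of other cell types, too few for a ratio. Of 16 costimulators of the B7 and related families, 4 were higher and 6 lower. Icosl, the ligand of ICOS, stood at 114 and 64.8 CPM (0.81), Cd200, an inhibitory ligand, at 310.4 and 187 CPM (0.73), Cd80 at 867 and 636 CPM (0.45) and Cd86 at 1458 and 1178 CPM (0.31). Pdcd1lg2, which encodes the PD-1 ligand PD-L2, was lower at 47.5 and 76.5 CPM (-0.68), as were Pvr (-0.90) and Cd40 (-0.28). Of the Notch genes 2 of 8 were higher and 4 lower: Dll4 was higher, while Rbpj, the transcription factor of the pathway, was lower at 86.3 and 159.6 CPM (-0.89, -0.98 to -0.80), as was the protease gene Adam10 (-0.37). The ligand gene Jag1 (-0.09) and the receptor gene Notch2 (-0.03) lay within 0.25.

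Class II presentation genes were more often higher, and class I genes were close to level. Of 14 class II genes 8 were higher and 1 lower, with a median of 0.27. The largest ratios were those of H2-DMb2 and H2-DMa, which encode the peptide exchange factor DM, at 0.69 (350.0 and 218 CPM) and 0.57 (391 and 263 CPM), of H2-Oa, a chain of its regulator DO, at 0.67 (164 and 103 CPM), and of Ciita, the transactivator of the pathway, at 0.50 (152 and 108 CPM). The cathepsin gene Ctss, at -0.16, was not among the higher ones. The 1 lower member, Marchf1, a ubiquitin ligase, had 32.9% of its UMIs in 5 cells, an interval that included 0 (-0.70 to 0.16), and only 43 UMIs outside the barcodes that carried markers of other cell types. Of 16 class I genes none was higher past 0.25 and Tapbp, a chaperone of peptide loading, was lower at 178 and 220.4 CPM (-0.31). H2 genes resemble each other, so reads could be split between them.

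Chemokines were mostly lower, and genes of the IL-6 and IL-12 families more often higher. Of 13 measured chemokines 9 were lower and 1 higher, with a median of -0.56. Ccl17, which attracts type 2 helper T cells, stood at 256 and 399 CPM (-0.64, -0.69 to -0.59), and Cxcl16, a membrane-bound chemokine, at 376 and 564 CPM (-0.58, -0.63 to -0.54). Ccl22, the partner of Ccl17 at the receptor CCR4, was close to equal at 1892 and 2052 CPM (-0.12). Ccl4 was the higher one at 1.42, with 78.5% of its UMIs in 5 cells, and Ccl6 the lowest at -1.83, with 47.4% in 5 cells. Of 9 genes of the IL-6 and IL-12 families 5 were higher and 2 lower: Il12b, the shared subunit of IL-12 and IL-23, stood at 64.1 and 41.2 CPM (0.64), Ebi3, a subunit of IL-27, at 140.1 and 89.4 CPM (0.65) and Socs3, a feedback inhibitor, at 41.8 and 27.1 CPM (0.63), against Il6ra at 8.14 and 15.7 CPM (-0.95) and Osm at 16.0 and 23.7 CPM (-0.57). The IL-1 family was split. Il1r1 and the decoy receptor gene Il1r2 (31.6 and 16.7 CPM, 0.92) were higher, while Il1b (78.0 and 139 CPM, -0.83), the antagonist Il1rn (-0.68), Il18 (-0.58) and the co-receptor gene Il1rap (-0.43) were lower, in all 2 of 11 higher and 5 lower. With the tag quadrants weighted to the same mix Il1b (0.14) and Il1rn (0.55) turned, Il6ra was at 0.04, and the median of the IL-1 list went from -0.24 to 0.0453.

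Genes of the TSLP receptor and of the STAT5 response showed 5 of 15 higher and 2 lower. Il2ra, the alpha chain of the IL-2 receptor, stood at 179.6 and 116 CPM (0.63), Il7r, a chain of the TSLP receptor, at 348 and 254 CPM (0.45), and the survival gene Bcl2l1 at 181 and 129 CPM (0.49). The TSLP receptor chain Crlf2 was close to equal at 20.4 and 19.4 CPM (0.08, -0.12 to 0.28), as was Cish at 0.14 (-0.02 to 0.30). Of 17 genes of the NF-kB pathway 4 were higher and none lower, among them Nfkbia, its inhibitor, at 0.37, Nfkbiz at 0.32 and Nfkb1 at 0.31. Of 13 genes sensed or induced by IL-4 and IL-13, 7 were lower and 1 higher, with Il13ra1 at 27.1 and 41.9 CPM (-0.63) and Il4ra equal at 64.0 and 64.7 CPM. That list rested in part on Retnla, and its median of -0.31 became 0.11 without barcodes that carried markers of other cell types.

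Regulators of the plasmacytoid lineage were split. Of 13 measured genes of that lineage 7 were higher and 3 lower, with a median of 0.31. Tcf4, its master regulator, stood at 604 and 409 CPM (0.56, 0.52 to 0.60), Runx2, which governs its exit from bone marrow, at 413 and 258 CPM (0.68, 0.63 to 0.73), and Spib at 42.8 and 28.6 CPM (0.58, 0.43 to 0.73). Atp1b1, given above, belongs to the same list. Irf8, high in plasmacytoid and type 1 dendritic cells, was lower at 68.5 and 121 CPM (-0.82, -0.92 to -0.72), and Bst2 had -0.17. Functional genes of plasmacytoid cells were almost unread: Siglech had 1 UMI in each population, Tlr7 had 7 and 21, Tlr9 13 and 24, and Cox6a2 4 and 3. Among 13 markers of CD11b-positive type 2 cells 3 were higher and 3 lower, with a median of 0.12 that became 0.59 without barcodes that carried markers of other cell types. The lower ones were Clec12a (-1.28), Sirpa and Csf2rb (-0.33). The higher ones were the lectin genes Clec10a (1.06, and 2.20 with the same tag mix) and Mgl2, and Ms4a6c (0.94), with 57.0%, 27.7% and 26.4% of their UMIs in 5 cells. Irf4, a regulator of these cells, stood at 124 and 105 CPM (0.25). Of 15 genes of migratory dendritic cells Apol7c was the only one past 0.25, with the others between -0.24 and 0.18.

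Interferon-stimulated and lipid genes were more often lower. Of 14 measured interferon-stimulated genes 9 were lower and none higher, with a median of -0.65: Isg15, a ubiquitin-like protein, stood at 13.9 and 48.2 CPM (-1.79, -2.02 to -1.58) with 18.0% of its UMIs in 5 cells, and Mx1, an antiviral GTPase, at 17.4 and 34.1 CPM (-0.97, -1.17 to -0.77). With the tag quadrants weighted to the same mix the median was -0.28. By the CD11b tag alone, Isg15 stood at -1.95 in CD11b-high cells but at 0.19 in CD11b-low cells. Mx1 was lower in both, at -0.84 and -1.11. Of 20 genes of cholesterol and fatty acid metabolism 11 were lower and 2 higher, with a median of -0.29. Abcg1, which exports cholesterol, stood at 110.0 and 168 CPM (-0.61) and Cyp51, of sterol synthesis, at 63.7 and 89.9 CPM (-0.50), while Acot1, an acyl-CoA hydrolase, was higher (0.95). Lysosomal genes were close to level: of 17, 4 were lower and 1 higher, where 18% and 11.9% of all measured genes were. Their median was -0.10, and 0.0037 with the same tag mix. The lowest were Npc2, a cholesterol carrier, at 474 and 779.8 CPM (-0.72) and Psap, the saposin precursor, at 169.7 and 279.9 CPM (-0.72). Hspa1a and Hspa1b, near-identical heat shock genes whose reads cannot be divided with certainty, stood at -1.07 and -1.09, and 4 of the 12 heat shock genes were lower in all.

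Other surface and signalling genes went both ways. Of 16 adhesion genes and integrins 8 were lower and 3 higher: Itgb7, the beta chain of a gut-homing integrin, stood at 23.5 and 12.0 CPM (0.97, 0.75 to 1.18) and Alcam at 0.40 beside Thy1, while Itga1, a collagen receptor chain, was lower at 3.04 and 8.35 CPM (-1.44, -1.95 to -0.99). Edil3 and Mpzl2 had lower ratios still, -3.18 and -2.98, with 27.2% and 18.5% of their UMIs in 5 cells. Both were lower in CD11b-high cells (-3.31 and -3.45) but not in CD11b-low cells (0.21 and 1.32). Of 12 semaphorin, plexin and neuropilin genes 3 were higher and 4 lower, with Plxna4 at 188 and 91.9 CPM (1.04) and Nrp1 at 36.4 and 23.6 CPM (0.63) against Plxna1 at 1.91 and 4.19 CPM (-1.11). Of 13 chemokine and lipid guidance receptors 3 were higher and 3 lower, Gpr183 above all, with the bone marrow retention receptor Cxcr4 at 34.8 and 53.6 CPM (-0.62). Of 15 growth factor and gamma chain receptor genes 5 were higher and 6 lower: Il9r, the receptor of IL-9, stood at 60.0 and 31.2 CPM (0.94, 0.81 to 1.07), whereas Il15 (-0.46) and its receptor chain Il15ra (-0.38) were lower. Of 16 genes of the BCL2 family 2 were higher and 5 lower, and the 2 were the survival gene Bcl2l1 and the death gene Bcl2l11 (0.67).

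**Figure D4:**
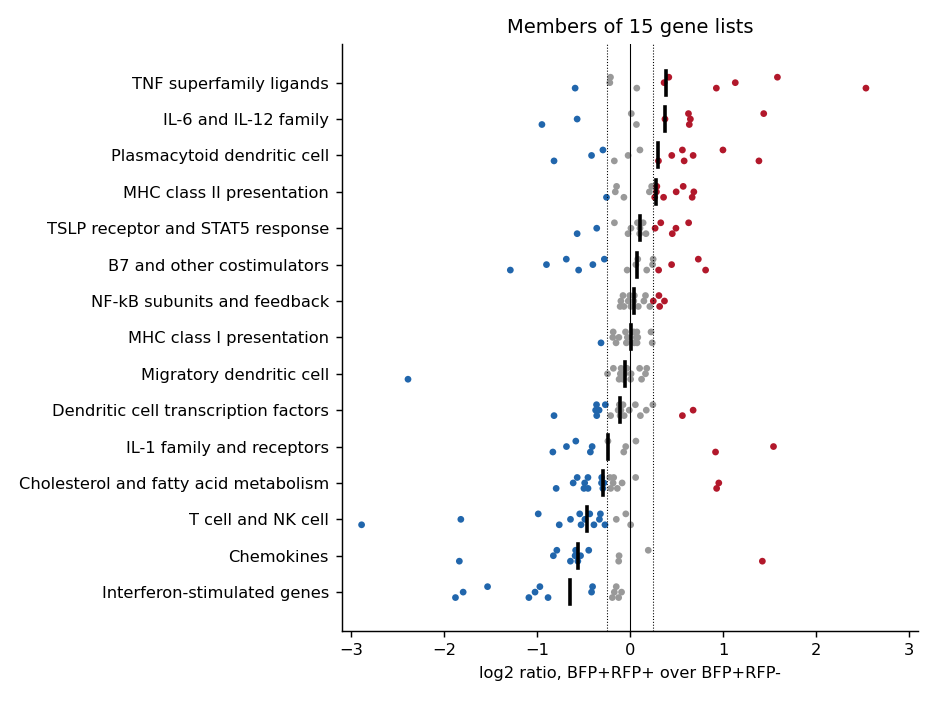
Log2 ratios of BFP+RFP+ over BFP+RFP- cells for the members of 15 gene lists, each point a gene with at least 100 UMIs and each bar the list's median. Points past 0.25 are red and past -0.25 blue. The median is highest for TNF superfamily ligands (0.39) and lowest for interferon-stimulated genes (-0.65).

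Markers of T and NK cells and of B cells moved with the populations and stand beside these lists; their part in the results was tested only by leaving barcodes out. Of 16 measured T and NK cell genes 13 were lower in BFP+RFP+ cells and none higher, with summed levels of 238 and 324 CPM, and of 11 B cell genes 7 were lower and 1 higher, with sums of 145 and 168 CPM. Without the 93 BFP+RFP+ and 223 BFP+RFP- barcodes that carried markers of T, NK or B cells or macrophages, the median of the chemokines was -0.58, that of the interferon-stimulated genes -0.68, that of cholesterol and fatty acid metabolism -0.30, and that of class II presentation 0.33. All 30 genes named by ratio kept their direction and stayed past 1 without those barcodes. Of macrophage markers C1qa stood at 7.08 and 8.26 CPM (-0.22, -0.57 to 0.11) with 70.6% of its UMIs in 5 cells, and none of the markers of neutrophils, mast cells and basophils reached 100 UMIs, with Mcpt8, Tpsb2 and Fcer1a at 0.

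The populations differed in Tnfsf4, so the ratios were also computed with both weighted to the same distribution of Tnfsf4 UMIs per cell (0, 1 to 2, 3 to 5, and 6 or more). This did not make Tnfsf4 equal: its own ratio was still 0.35. The open group of 6 or more held 88.4% and 75.01% of its UMIs. Ratios under this weighting are therefore not ratios at equal Tnfsf4. Several T cell ligands then came closer: Tnfsf9 went from 1.13 to 0.28, Cd70 from 0.93 to 0.26, Cd86 from 0.31 to -0.02 and Dll4 from 1.31 to 0.64. So did Il12b (0.64 to -0.0043), Bcl2l1 (0.49 to -0.09), Nfkbia (0.37 to 0.07) and Egr1, an immediate early gene (0.48 to -0.04). Other genes kept most of their ratio, with Nrgn at 1.65, Tubb2b at 1.15, Thy1 at 1.09, Icosl at 0.73 and H2-Oa at 0.69. On the lower side Apol7c stood at -2.03 and Cst3 at -0.71. All 30 genes named by ratio kept their direction under this weighting and 21 stayed past 1. Over all genes 67 in place of 110 were then higher, 58 of them shared with the unweighted count.

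The mix of tag quadrants moved the ratios as well. With both populations weighted to the same mix of the CD8a and CD11b quadrants, 29 of the 30 genes kept their direction and 15 stayed past 1. Apol7c went from -2.39 to -1.21, Ltc4s to -0.95, Cst3 to -0.43, Sirpa to -0.19 and Irf8 to -0.31, and Fgl2, at -1.17 before, was at 0.0016. The class II median of 0.27 was then at 0.21. Nrgn (1.54), Thy1 (1.21), Dll4 (1.16), Il6 (1.12) and Il1r1 (1.13) stayed past 1. Of genes lower by at least 1 there were 81 in place of 159, 65 of them shared. Of the 110 genes higher by at least 1, 60 were still called.

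Within quadrants the genes fell into different patterns. Thy1 was higher in BFP+RFP+ cells in every quadrant, at 138 and 68.8 CPM in CD8a-high CD11b-low, 130.1 and 65.1 in CD8a-high CD11b-high, 67.9 and 12.7 in CD8a-low CD11b-high and 42.7 and 16.3 in CD8a-low CD11b-low cells. T cells also carry Thy1, and in CD8a-low cells the T and NK cell list was higher in BFP+RFP+ cells too (median 0.84). Quadrant levels were not computed without barcodes that carried markers of other cell types. Over all quadrants together the ratio of Thy1 without those barcodes was 1.78. Il1r1 had its largest ratios where CD8a was low, at 19.9 and 2.09 CPM with CD11b high and 11.4 and 2.83 with CD11b low, against 35.2 and 26.0 in CD8a-high CD11b-low cells. Dll4 was lowest in CD8a-low CD11b-low BFP+RFP- cells (1.27 CPM) and stood at 11.4 CPM in the same quadrant of BFP+RFP+ cells. The levels of Il1r1 and Dll4 in that quadrant also rested on few UMIs. So did those of Il1r1 in CD8a-low CD11b-high cells, with 17 and 23 UMIs. Apol7c was lower with a Siglech history in each quadrant, and in both populations its level was highest in one quadrant, at 517 and 899 CPM in CD8a-low CD11b-high cells against 30.6 and 129.5 CPM in CD8a-high CD11b-low cells. Ccl5 was lower in 3 quadrants and level in CD8a-low CD11b-high cells (4757 and 4572 CPM, 0.06). Tcf4 differed by much the same amount in all 4, between 0.41 and 0.56, whereas Irf8 was close to level in both CD11b-low quadrants (0.01 and 0.03) and lower in CD8a-low CD11b-high cells at 161 and 228 CPM. The quadrant of CD8a-low CD11b-high BFP+RFP+ cells held 63 cells, the fewest.

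**Figure D5:**
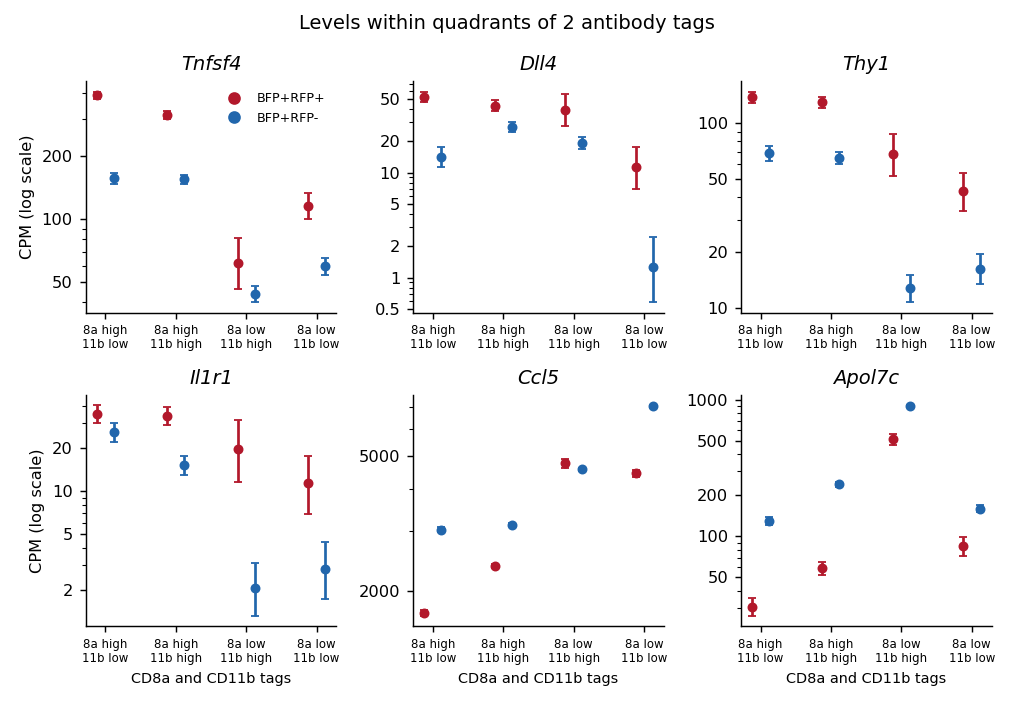
CPM (log scale) of 6 genes in BFP+RFP+ (red) and BFP+RFP- (blue) cells within the 4 quadrants of the CD8a and CD11b tags, with exact 95% Poisson intervals. Tnfsf4, Dll4, Thy1 and Il1r1 are higher and Apol7c lower in BFP+RFP+ cells in each quadrant. Ccl5 is lower in 3 of the 4 and level where CD8a is low and CD11b high.

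Shares of cells with a UMI followed the levels after each cell was thinned to 5000 UMIs, which left out 56 BFP+RFP+ and 152 BFP+RFP- cells. Il1r1 was then seen in 10.7% and 3.25% of cells, Dll4 in 11.1% and 4.63%, Tnfsf4 in 32.4% and 15.7% and Tubb2b in 52.1% and 26.3%. As a level of free RNA, 196 barcodes with T, NK or B cell markers and at most 5 Fscn1 UMIs (a limit set after their values had been seen, which kept 272 of 474 such barcodes before thinning) gave 3.06%, 1.02%, 2.55% and 5.61% for the same genes. The shares of Il1r1, Dll4 and Tnfsf4 lay above that level in BFP+RFP+ cells, whereas that of Il1r1 in BFP+RFP- cells did not stand apart from it. Thy1 was seen in 23.3% and 7.68% of cells against 40.8% of those barcodes, which include the T cells that express it. The shares of Btla (30.4% and 14.9% against 41.8%) and Tagap (8.03% and 3.05% against 21.4%) were likewise below those barcodes in both populations. In BFP+RFP- cells alone this held for Nrgn (3.30% against 3.57%), Atp1b1 (9.40% against 12.2%) and Cd24a (7.97% against 12.8%). Of the lowest genes, Sgms1, Ttc39b and Mtss1 were below those barcodes in both populations, at 39.3%, 19.9% and 20.9% there. In BFP+RFP+ cells alone, Slamf1 (12.0% against 13.8%) and Trf (2.04% against 2.55%) were below those barcodes, and Mmp14 (2.04% against 2.04%) was level with them. Within the 2 populations, barcodes with markers of other cell types held 14.9% of Btla, 30.7% of Tagap, 30.5% of Sgms1, 17.0% of Ttc39b and 12.8% of Mtss1 UMIs. The T, NK and B cells of the 196 barcodes could also make these RNAs themselves, which was not tested. A share at or below that of the 196 barcodes therefore cannot decide whether the cells compared here express the gene. These barcodes had a median of 6674.5 UMIs before thinning, against 15183 and 14854.5, and 76 of 272 were left out for depth.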

How the data were processed

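Single cells of 1 pool were read by CITE-seq as an mRNA library, an antibody tag library and a hashtag library. Per the file headers, the authors deposited raw counts of UMIs, written by Cell Ranger 7.0.0, in 6079 barcodes. They cover 22548 genes beside 4 antibody tags and 4 hashtags. GRCm39 (mm39) is the build, per the submitters' processing notes. The rule that called barcodes as cells is not given in the sources used here. Counting of paralogues and strand were the authors', and no genome of this build was used here, so no coordinates are given.

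Cells were assigned to a population by the share of hashtag UMIs and filtered as the report states. Counts were summed per population and divided by its mRNA UMIs (CPM). Log2 ratios had a pseudocount of 0.5 UMI. Exact 95% intervals cover counting error only: levels have Poisson, ratios conditional binomial and shares Clopper-Pearson limits. With 1 sample a group no test was made. Genes were called past a log2 ratio of 1 or -1 with at least 100 UMIs, and list members were counted past 0.25 or -0.25.

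Genes were named by rule: at least 500 UMIs, at most 10% of them in the 5 cells with the most, leaving out reporters, Tnfsf4, unnamed gene models and the genes of mitochondria, ribosomal proteins and antigen receptors, which left 6565 genes. The 15 highest and 15 lowest ratios, the 10 largest differences in CPM per direction, and up to 6 members of each of 50 gene lists with the largest ratios were open to naming, with further members for contrast; some genes are not reported here. The members and lists were chosen with earlier results of these data known. Doublets within a population were not removed; a doublet caller was not run, and the 10% of cells with the most UMIs were left out as an alternative. The scripts (Python 3.11.15, numpy 2.4.6, scipy 1.17.1, pandas 2.3.3) were tested on simulated data. The alternatives changed the hashtag share, scaling, weight of cells, cells of other types, mitochondrial limit, Tnfsf4 distribution, tags, count filter and pseudocount.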

Additional observations from a re-analysis of the deposited data

How the results depend on the processing

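No paired analysis was possible because there was 1 capture with 1 sample a population, and no replicate could be left out. The CD8a tag split and the weighting to the same mix of tag quadrants were chosen after seeing the data. The genes higher in BFP+RFP+ than in BFP+RFP- cells, 110 as reported, became 51 among cells with a CD8a tag at or above the median, 67 with the same Tnfsf4 distribution, 1421 without a count filter and 41 with at least 500 UMIs. The genes lower in BFP+RFP+ than in BFP+RFP- cells, 159 as reported, became 81 with the same tag mix, 894 without a filter and 56 with at least 500 UMIs. Of the genes named by ratio, Fgl2 turned to 0.0016 with the same tag mix, Mmp14 to 0.77 in CD11b-low cells and Sgms1 to 0.0169 in CD8a-low cells; in CD8a-low cells 12 of the 30 stayed past 1. The IL-4 and IL-13 list turned to 0.11 without barcodes of other types, 0.10 without the cells with the most UMIs, 0.11 in CD8a-low cells and 0.0633 with the same tag mix. The synaptic list (-0.54) turned to 0.49 without barcodes of other types, and the plasmacytoid list to -0.0636 in CD11b-low cells. In CD8a-low cells the T and NK cell list turned to 0.84 and the B cell list to 0.95, the latter also to 0.16 with the same Tnfsf4 distribution and 0.24 with the same tag mix.

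Among lists with at least 5 measured members, those with a median of at least 0.25 went from 4 to 12 without barcodes of other types, 8 in CD11b-high cells, 14 in CD8a-low cells, 1 with the same Tnfsf4 distribution and 7 with the same tag mix. Those at or below -0.25 went from 8 to 5 each without the cells with the most UMIs, with each cell of the same weight, with the same Tnfsf4 distribution and with the same tag mix. The log2 ratio of the CD8a tag was 0.87 at a hashtag share of 95%, 1.01 without barcodes of other types, 0.93 without the cells with the most UMIs and 1.53 from medians. In the same order CD11b had -0.64, -0.56, -0.63 and -0.88, with -0.55 at a mitochondrial limit of 5%, and CD172a had -0.50, -0.42, -0.49 and -0.52. CD301b had -0.48 without barcodes of other types, -0.46 without the cells with the most UMIs and -0.20 from medians. The causes were not tested.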

Other observations

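Some genes not described above had large ratios; they were picked after their values had been seen. Myl7, an atrial myosin light chain, stood at 80.1 and 11.6 CPM (2.79, 2.63 to 2.96), with 12.6% of its UMIs in 5 cells. Aire, the regulator of self-antigen expression in the thymus, stood at 9.98 and 3.18 CPM (1.65, 1.28 to 2.02), and Lag3, an inhibitory receptor, at 13.7 and 4.75 CPM (1.52, 1.22 to 1.83). Tnfrsf11b, which encodes osteoprotegerin, the decoy receptor of RANKL, stood at 22.0 and 4.47 CPM (2.30, 2.02 to 2.59), beside Tnfsf11 at 8.84 and 1.52 CPM. Il1rl2, the receptor of IL-36, stood at 26.4 and 7.17 CPM (1.88, 1.65 to 2.12), in the same direction as Il1r1.

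On the lower side, secretory genes of salivary and lacrimal glands rested on few cells. Pip had a ratio of -6.41, Smr3a -4.16 and Bpifa2 -4.30, and 5 cells held 96.6%, 94.8% and 95.3% of their UMIs.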
